A study of Homo sapiens with 4 samples.

Results

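ATP-dependent chromatin remodelers are enzymes that slide, eject or exchange nucleosomes. Transcripts of 43 genes of these enzymes and of the subunits of the BAF complexes were followed in SKNMC cells, out of 60617 gene entries counted. The members were taken from a list of the BAF, ISWI, CHD and INO80 families and related ATPases by gene symbol, and all 43 symbols matched an Ensembl identifier of the count table. SKNMC cells are a long-established line from a human Ewing sarcoma, and the listed markers of that tumour were present: CD99, NKX2-2, NR0B1, STEAP1, PAX7, LIPI, BCL11B and CCK stood between 30.3 and 475 CPM (reads per 1000000 assigned, after scaling) in the DMSO libraries. With CBL0137, 5 of these 8 markers were called lower, against 15.1% of all genes tested (criteria given below). They were CCK (log2 fold change -2.38), PAX7 (-0.99), BCL11B (-0.93), CD99 (-0.69) and NR0B1 (-0.67). Of those not called, STEAP1 stood lower (-0.24) and LIPI (0.35) and NKX2-2 (0.23) stood higher. The part of these markers in the results was not tested. The cells were kept for 24 h with 1 µM CBL0137 (n = 2 libraries) or with the DMSO vehicle (n = 2). CBL0137 belongs to the curaxins, DNA-binding compounds known to hold the histone chaperone FACT on chromatin. The comparison asks which transcripts differ after treatment with the compound, and the part of FACT in these differences was not tested.

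BAF complexes (SWI/SNF) carry either SMARCA4 or SMARCA2 as their ATPase and come in a canonical form marked by ARID1A or ARID1B, a PBAF form marked by ARID2 and PBRM1, and a non-canonical form marked by BRD9. ISWI enzymes space nucleosomes, CHD enzymes include the ATPases of the NuRD deacetylase complex, and INO80-type enzymes exchange histone variants. In Ewing sarcoma, the EWSR1-FLI1 fusion protein is known to bind BAF complexes and to bring them to repeats of the GGAA motif, where they open chromatin at tumour-specific enhancers.

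The 4 libraries held 19625517 to 21061892 reads assigned to genes and the coefficient of variation that edgeR estimated between replicates was 4.11%. The labels do not say whether replicate libraries derive from separate cultures, so p-values here rest on the spread between these samples alone, which may be technical. Of 8 markers of other cell types, CDH1, DES and MYOD1 were at or near 0 (at most 0.546 CPM) and EPCAM and CDH5 had at most 8.08 CPM in any library. PTPRC (107 to 162 CPM), COL1A1 (119 to 471 CPM) and COL1A2 (625 to 653 CPM) were well expressed. PTPRC stood lower with CBL0137 under the fold limit (log2 fold change -0.49, SE 0.06), and COL1A2 was at 0.03 (SE 0.05). COL1A1 rose with CBL0137 (log2 fold change 1.89, SE 0.06), as did EPCAM (1.42, SE 0.20) and CDH5 (1.05, SE 0.30), and their part in the results below was not tested. All levels are relative to the library, so that fewer cells of a type and less RNA per cell cannot be told apart.

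The SMARCA2 and SMARCA4 genes, which encode the alternative BAF ATPases, and the SMARCA1 and SMARCA5 genes, which encode the alternative ISWI ATPases, are the pairs whose shares are compared below, and CHD2 is the called member with the lowest fold change. The 250 bases upstream of the most upstream RefSeq start site of each (RefSeq, build GRCh38.p14) are shown so that the windows of paralogs with different values can be read side by side. The gene spans given below follow GENCODE on GRCh37, so a window need not lie at the start of its gene's span. Capitals mark every match, on either strand, to the motifs searched: the GC box (GGGCGG), the CCAAT box (CCAAT), the TATA box (TATAAA), the ETS core (CCGGAAG), the NRF1 motif, the E-box (CACGTG) and the cAMP response element (TGACGTCA). Matches of different motifs may overlap.
SMARCA2: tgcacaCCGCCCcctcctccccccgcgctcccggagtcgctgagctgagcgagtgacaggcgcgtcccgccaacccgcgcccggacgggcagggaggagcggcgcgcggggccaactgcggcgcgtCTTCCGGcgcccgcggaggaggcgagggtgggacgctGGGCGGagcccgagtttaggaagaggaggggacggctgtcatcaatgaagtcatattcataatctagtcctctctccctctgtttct
SMARCA4: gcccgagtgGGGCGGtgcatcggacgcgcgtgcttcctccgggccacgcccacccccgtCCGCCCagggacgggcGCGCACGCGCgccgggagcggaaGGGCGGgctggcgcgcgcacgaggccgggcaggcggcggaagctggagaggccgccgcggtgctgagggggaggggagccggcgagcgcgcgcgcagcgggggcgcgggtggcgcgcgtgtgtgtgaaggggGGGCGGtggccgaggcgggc
SMARCA1: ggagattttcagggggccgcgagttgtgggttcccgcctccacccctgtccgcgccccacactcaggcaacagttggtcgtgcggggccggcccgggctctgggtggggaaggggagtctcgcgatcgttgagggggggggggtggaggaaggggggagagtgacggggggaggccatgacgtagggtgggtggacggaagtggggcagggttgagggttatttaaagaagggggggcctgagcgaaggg
SMARCA5: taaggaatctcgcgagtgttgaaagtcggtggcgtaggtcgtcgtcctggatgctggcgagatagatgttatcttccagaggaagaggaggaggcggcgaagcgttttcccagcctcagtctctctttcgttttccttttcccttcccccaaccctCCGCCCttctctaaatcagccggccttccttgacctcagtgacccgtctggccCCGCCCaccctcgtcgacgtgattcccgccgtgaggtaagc
CHD2: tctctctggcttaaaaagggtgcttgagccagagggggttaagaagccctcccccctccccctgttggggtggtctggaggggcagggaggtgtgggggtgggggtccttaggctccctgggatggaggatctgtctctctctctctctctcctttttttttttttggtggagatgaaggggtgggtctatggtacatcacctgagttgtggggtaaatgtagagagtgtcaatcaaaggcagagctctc

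The SMARCA2 window lies at chr9:2015097-2015346, plus strand, and the SMARCA4 window at chr19:10960780-10961029, plus strand. The others lie at chrX:129523491-129523740, minus strand (SMARCA1), chr4:143513452-143513701, plus strand (SMARCA5) and chr15:92900074-92900323, plus strand (CHD2). The SMARCA4 window was the richest of the 5 in GC (82.4%) and held 44 CpG dinucleotides, 4 GC boxes and 1 NRF1 match. The SMARCA2 window (68.8% GC) held 29 CpG, 2 GC boxes and 1 ETS core, and the SMARCA5 window (58.0%) held 20 CpG and 2 GC boxes. SMARCA1 (68.0% GC, 16 CpG) and CHD2 (54.8% GC, 0 CpG) had no match to any of these letters in this window. RefSeq windows were found for 35 of the 43 members. Of these 35, 23 held a GC box (65.7%, against 42.2% of the windows of 27305 genes), 7 an NRF1 match (against 5.53%), 12 a CCAAT box (34.3% against 33.03%), 4 the ETS core (11.4% against 8.78%) and 3 an E-box (8.57% against 6.46%). The TATA box and the cAMP response element were in 0 of the 35 windows, against 11.2% and 1.75% of all. The members' windows had a median GC content of 68.0%, against 57.6% for all genes of the table, which include non-coding genes.

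CBL0137 was set against DMSO in edgeR's quasi-likelihood test of the counts, over the whole table. Calls needed both a fold above 1.5 and an adjusted p (Benjamini-Hochberg) under 0.05. Of the 43 members 42 passed the low-count filter. The exception was ACTL6B, which encodes the neuronal actin-related subunit of BAF and had 0 reads in 3 libraries and 4 reads in CBL0137 replicate 1. Of the 42, 5 were called higher (11.9%, against 18.2% of all 17374 genes tested) and 8 lower (19.0%, against 15.1%), so that calls were about as frequent as among all genes (31.0% against 33.4%). Under the fold limit lay a further 4 members with an adjusted p under 0.05 that stood higher and 14 that stood lower. Without that limit, 22 of 42 members were lower (52.4%, against 30.9% of all genes) and 9 higher (21.4%, against 30.8%). Both treated libraries lay above both controls for 10 members (against 40.7% of all genes) and below both for 27 (against 39.2%), and for 5 the groups overlapped. The called members nearest the limit were DPF3 (0.59), SMARCAD1 (-0.61) and BCL7C (0.62), and those just outside it were SMARCA4 (-0.54) and SMARCD1 (-0.53). The median log2 fold change of the 42 was -0.24, against 0.01 for all genes tested. With library size alone, which shifts the median of all genes to 0.17, the members' median was -0.08 and the calls were 8 higher and 5 lower. The distance between these medians was -0.25 under both scalings, because a change of scaling shifts all genes by nearly the same amount. Over the other refits, some on other sets of genes, it ranged from -0.35 (DESeq2) to -0.17 (limma on log2(FPKM + 1), described below). Removing the trend with GC content and length left 3 higher and 10 lower.

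**Figure D1:**
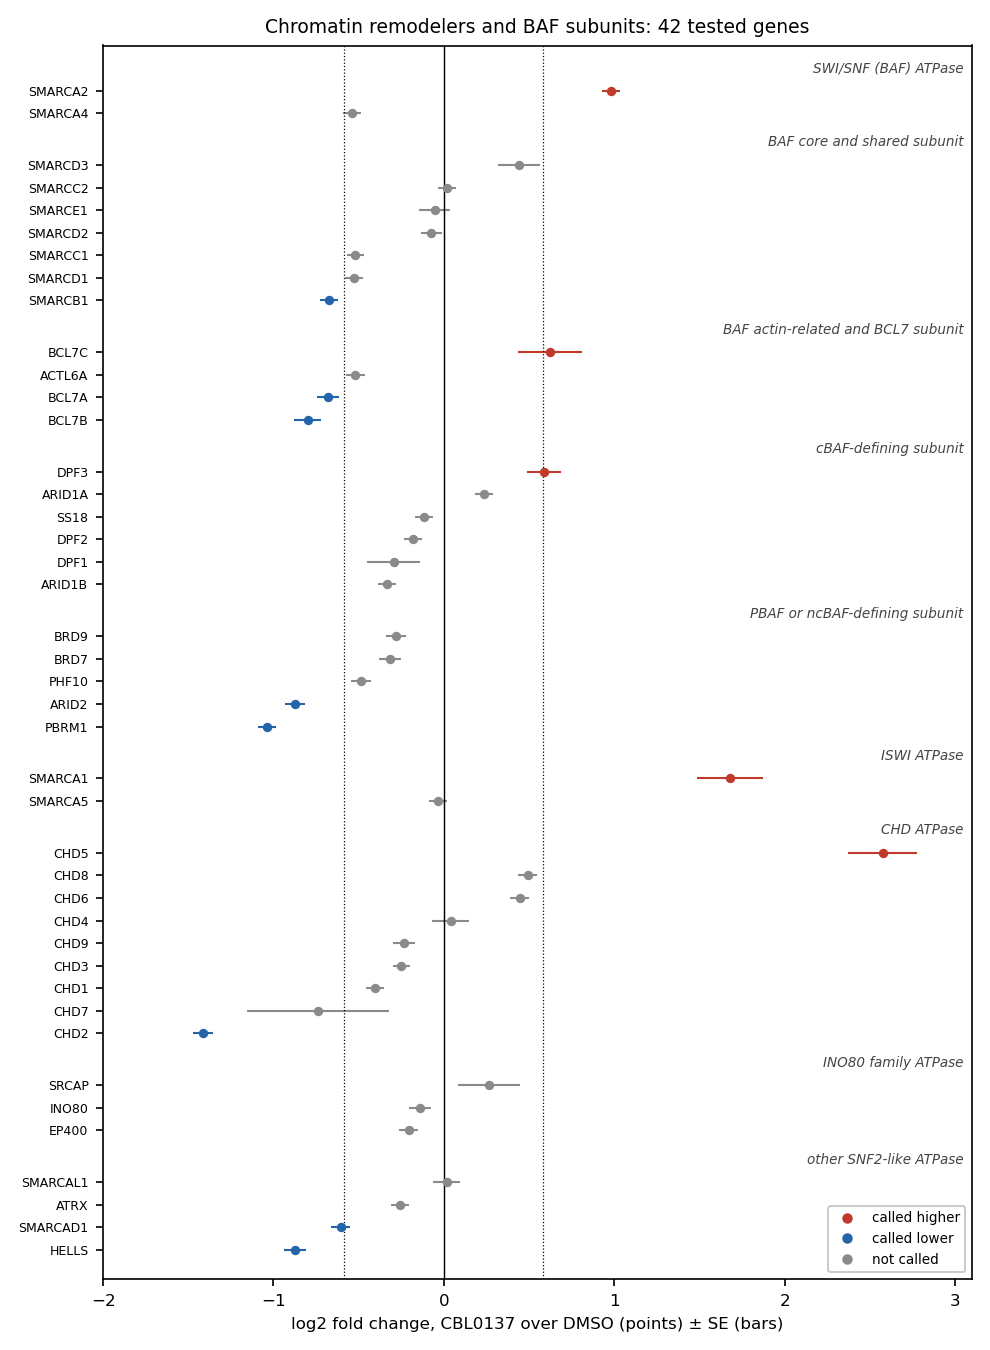
Log2 fold change (CBL0137 over DMSO, points) with its SE (bars) for the 42 tested members, grouped by family; dotted lines mark the fold limit of 1.5, red and blue points the called genes. CHD5 (2.58) and SMARCA1 (1.68) lie farthest to the right and CHD2 (-1.41) and PBRM1 (-1.04) farthest to the left, and the 5 PBAF and non-canonical BAF genes all lie left of 0.

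Of the alternative ATPases of BAF, SMARCA2 rose and SMARCA4 stood lower without passing the fold limit. SMARCA2 (BRM; ENSG00000080503, GRCh37 chromosome 9, 1980290 to 2193624, plus strand) stood at 176 and 166 CPM in the DMSO libraries and at 341 and 334 CPM in the CBL0137 libraries. Both treated libraries lay above both controls, and the gene rose 1.97-fold (log2 fold change 0.98, SE 0.05, edgeR adjusted p = 1.3e-19). SMARCA4 (BRG1; ENSG00000127616, chromosome 19, 11071608 to 11190102, plus strand) stood at 569 and 553 CPM with DMSO and at 394 and 379 CPM with CBL0137. Both treated libraries lay below both controls, but the log2 fold change of -0.54 (SE 0.05, adjusted p = 5.8e-12) stayed under the fold limit. SMARCA4 was called lower once the trend with GC content and length was removed (-0.86). In reads, SMARCA2 amounted to 0.309 and 0.301 of SMARCA4 in the DMSO libraries and to 0.867 and 0.880 in the CBL0137 libraries.

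Per exonic base, SMARCA2 made up 20.2% and 19.7% of the summed ATPase pair with DMSO and 41.5% and 41.8% with CBL0137. On the deposited FPKM values (fragments per kilobase of transcript and per 1000000 fragments), the share was 22.6% and 15.6% with DMSO and 42.9% and 48.6% with CBL0137. The FPKM of SMARCA2 itself differed between the DMSO replicates (20.2 and 11.8) more than its read counts did. With 2 libraries against 2, an exact two-sided permutation test cannot give a p under 0.333, so these shares carry no p-value.

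**Figure D2:**
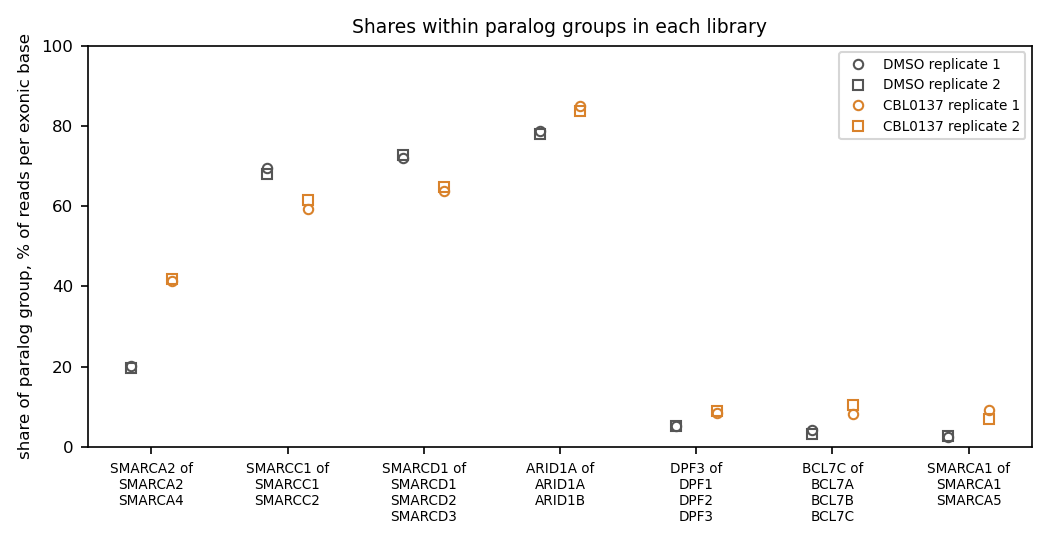
Share of a gene in the summed reads per exonic base of its paralog group (vertical axis, %), 1 point per library, for 7 groups. SMARCA2 stands at 19.7 to 20.2% of the BAF ATPase pair with DMSO and at 41.5 to 41.8% with CBL0137. The points of DMSO and CBL0137 do not overlap for the 1 gene shown of each group. The share of BCL7A, which is not shown, does overlap (42.8 ± 3.15% with DMSO, 42.1 ± 0.452% with CBL0137, SD). That of ARID1A overlaps on deposited FPKM. Such separation is common: the levels of 40.7% of all genes tested lie higher without overlap and those of 39.2% lower.

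Among the genes listed as BAF core subunits, SMARCB1 fell. SMARCB1, the subunit lost in rhabdoid tumours (ENSG00000099956, chromosome 22, 24129118 to 24180196, plus strand), stood at 222 and 215 CPM with DMSO and at 139 and 135 CPM with CBL0137 (log2 fold change -0.68, SE 0.05, edgeR adjusted p = 1.8e-14). Of its exonic length 17.7% is shared with DERL3 on the opposite strand, which had at most 6 reads in any library. SMARCB1 kept an adjusted p of 1.3e-10 with library size alone but lost its call to the fold limit there (-0.52). The scaffold genes SMARCC1 (405 ± 10.7 and 282 ± 9.80 CPM, SD, n = 2; -0.52) and SMARCC2 (220.5 ± 5.45 and 224 ± 7.19 CPM; 0.02) were not called. SMARCC1 was 69.6% and 68.1% of that pair per exonic base with DMSO and 59.2% and 61.4% with CBL0137.

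In the SMARCD group, whose proteins occupy 1 position in the complex, SMARCD1 stood at 185 ± 2.41 CPM with DMSO and 128 ± 0.383 CPM with CBL0137 (-0.53, SE 0.05), SMARCD2 at 72.3 ± 0.910 and 68.7 ± 1.63 CPM (-0.07) and SMARCD3 at 10.8 ± 0.179 and 14.6 ± 1.01 CPM (0.44, SE 0.12). None of the 3 was called, although SMARCD1 was called lower without the GC and length trend and SMARCD3 higher with library size alone (0.60). The share of SMARCD1 in the group went from 71.9% and 72.7% to 63.7% and 64.7%, and that of SMARCD3 from 4.26% and 4.13% to 7.57% and 6.995%. Of SMARCD3's exonic length 26.9% is shared with a gene on the opposite strand. CHPF2, which is among its overlapping antisense genes, with 357 and 358 reads with DMSO and 1250 and 1080 reads with CBL0137, was called higher (1.47, SE 0.09), and without a known strand setting the reads of the pair cannot be told apart. SMARCE1, the HMG-box subunit, was at -0.05 (SE 0.09), a value that rests on few of its reads, as described below.

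The smaller BAF subunits changed in both directions. BCL7A and BCL7B fell and BCL7C, a member of the same family of nucleosome-binding subunits, was called higher. BCL7A (ENSG00000110987, chromosome 12, 122457328 to 122499950, plus strand) stood at 91.7 and 85.7 CPM with DMSO and 57.1 and 53.5 CPM with CBL0137 (log2 fold change -0.68, SE 0.06, edgeR adjusted p = 3.2e-12). It lost its call with library size alone (-0.52). BCL7B (ENSG00000106635, chromosome 7, 72950686 to 72972020, minus strand) stood at 50.7 and 58.5 CPM with DMSO and 32.7 and 30.0 CPM with CBL0137 (-0.80, SE 0.08, adjusted p = 1.2e-11), and was called lower under each alternative except the fold limit of 2.

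BCL7C (ENSG00000099385, chromosome 16, 30844947 to 30905623, minus strand) was much lower, at 5.07 and 3.92 CPM with DMSO and 6.24 and 7.63 CPM with CBL0137 (0.62, SE 0.19, edgeR adjusted p = 0.0042). The treated libraries lay above the controls, by about as much as replicates of a group differed. The call was lost under 8 of the alternatives fitted, among them DESeq2 (adjusted p = 0.10), leaving out DMSO replicate 2 (0.43) or CBL0137 replicate 2 (0.46), and removal of the GC and length trend (0.19). ACTL6A, the actin-related subunit of dividing cells, was at 187 ± 1.93 and 131 ± 5.86 CPM (-0.52, SE 0.05), under the fold limit.

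Of the 6 genes listed under canonical BAF, 1 was called (16.7%, against 33.4% of all genes tested). ARID1A, its largest DNA-binding subunit, stood at 354 and 355 CPM with DMSO and 431 and 404 CPM with CBL0137 (log2 fold change 0.24, SE 0.05, edgeR adjusted p = 0.00013). Its alternative ARID1B stood at 275 and 290 CPM with DMSO and 222 and 226 CPM with CBL0137 (-0.33, SE 0.05, adjusted p = 6e-07). Both stayed under the fold limit, with groups that did not overlap and with opposite signs. With the GC and length trend removed, ARID1A was at 0.0073 (edgeR adjusted p = 0.92) and ARID1B at -0.45, and on log2(FPKM + 0.1) neither had an adjusted p under 0.05 (limma, 0.28 and 0.24). The share of ARID1A in this pair per exonic base went from 78.8% and 77.9% to 84.8% and 83.7%. On deposited FPKM it was 51.6% and 73.3% with DMSO and 76.8% and 73.2% with CBL0137, so that the DMSO replicates differed by more than the groups.

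DPF3, a reader of acetylated histones that neurons and heart use (ENSG00000205683, chromosome 14, 73075742 to 73360809, minus strand), was called higher. It stood at 16.6 and 16.4 CPM with DMSO and at 24.6 and 25.1 CPM with CBL0137 (log2 fold change 0.59, SE 0.10, edgeR adjusted p = 2.1e-06). Its fold of 1.504 lay just over the limit, and the call was lost under 7 of the alternatives fitted. These were DESeq2 (0.57), no low-count filter (0.57), the GC and length trend removed with or without the replicate block (0.49), and the fits without DMSO replicate 1 (0.58), DMSO replicate 2 (0.57) or CBL0137 replicate 2 (0.57). The paralog expressed most widely, DPF2, was at 136 ± 0.721 and 119.95 ± 2.93 CPM (-0.18) and DPF1 at 8.50 ± 0.210 and 6.94 ± 0.154 CPM (-0.29, SE 0.16). SS18, the subunit fused in synovial sarcoma, was at 155.6 ± 0.0401 and 144 ± 0.848 CPM (-0.12, SE 0.05, adjusted p = 0.059).

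PBAF genes stood lower throughout. PBRM1, which encodes the subunit with a row of bromodomains (ENSG00000163939, chromosome 3, 52579368 to 52719933, minus strand), stood at 245 and 246 CPM with DMSO and at 118 and 121 CPM with CBL0137. It fell 2.06-fold (log2 fold change -1.04, SE 0.05, edgeR adjusted p = 2.2e-20), and the gap between groups was far wider than that between replicates. ARID2, the DNA-binding subunit of PBAF (ENSG00000189079, chromosome 12, 46123489 to 46301823, plus strand), stood at 122 and 128 CPM with DMSO and 67.4 and 69.1 CPM with CBL0137 (-0.87, SE 0.06, adjusted p = 1.4e-16). Neither gene lost its call in any alternative with the fold limit of 1.5, while ARID2 stayed under a limit of 2.

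PHF10 (152 ± 0.680 and 109 ± 6.07 CPM, SD, n = 2) and BRD7 (83.8 ± 1.38 and 67.3 ± 4.12 CPM) complete the PBAF set, and had log2 fold changes of -0.49 (SE 0.06) and -0.32 (SE 0.06), under the fold limit. All 4 PBAF-defining genes had an adjusted p under 0.05 (edgeR) and libraries that did not overlap between groups, against 30.9% and 39.2% of all genes that stood lower by these criteria, and all 4 were below 0 in each refit. With library size alone the highest of the 4 was at -0.16. With the GC and length trend removed, PHF10 was at -0.21 and BRD7 at -0.15, and on log2(FPKM + 0.1) their adjusted p was 0.084 and 0.072 (limma). Of BRD7's exonic length 41.8% is shared with a gene on the opposite strand. ADCY7, which is among the overlapping genes, was itself called lower in the same fit (-0.77, SE 0.17). BRD9, the bromodomain subunit of non-canonical BAF, was at 92.1 ± 3.43 and 75.9 ± 0.0333 CPM (-0.28, SE 0.06, adjusted p = 1e-04), also under the limit.

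PBRM1 starts head to head with GNL3, a nucleolar GTPase gene: their annotated RefSeq start sites lie 7 to 433 bases apart, on opposite strands. GNL3 (chromosome 3, 52715172 to 52728513, plus strand) had 2828 and 2727 reads with DMSO and 1434 and 1596 reads with CBL0137, a log2 fold change of -1.11 (SE 0.06). The only other such pair of tested genes among the 35 members with a RefSeq window was BRD9 (-0.28) and TRIP13 (-0.34, SE 0.06), neither of which was called. Neighbours were looked up after the values had been seen.

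**Figure D3:**
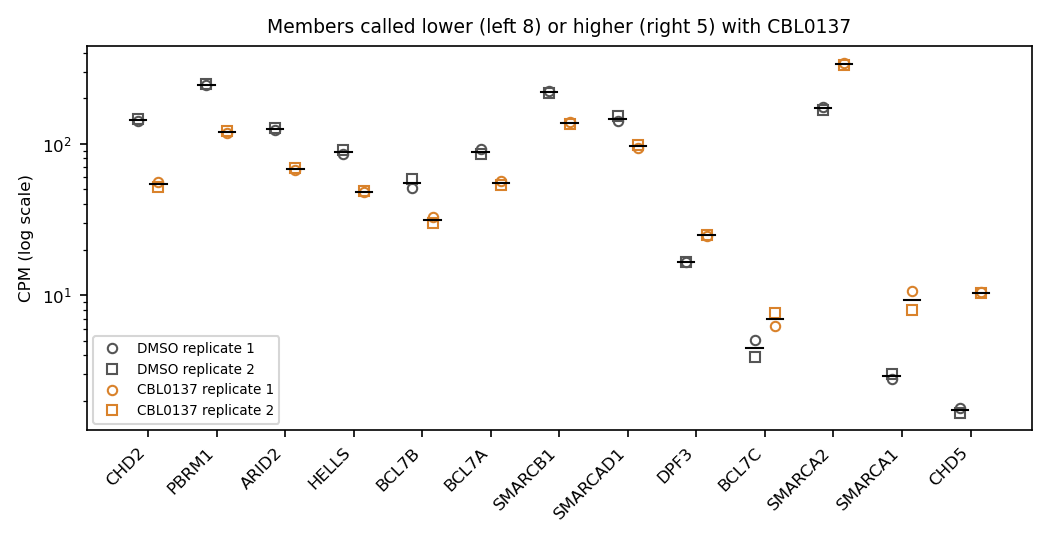
CPM (vertical axis, log scale) of the 13 called members in each library, circles for replicate 1 and squares for replicate 2, with the group means as bars. DMSO is grey and CBL0137 orange; SMARCA2 is the 1 called riser above 100 CPM, at 334 to 341 CPM, while DPF3, the next, reaches 25.1 CPM.

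Of the ISWI pair, SMARCA1 rose. SMARCA5, the ISWI ATPase of most dividing cells, stood at 201 and 205 CPM with DMSO and 195 and 201 CPM with CBL0137 (log2 fold change -0.03, SE 0.05, edgeR adjusted p = 0.6), with overlapping groups. Its paralog SMARCA1, which is known for its expression in neurons (ENSG00000102038, chromosome X, 128580478 to 128657477, minus strand), had 53 and 56 reads with DMSO and 234 and 177 reads with CBL0137. That is 2.80 and 3.01 CPM against 10.7 and 7.99 CPM, a 3.20-fold rise (1.68, SE 0.19, adjusted p = 6.1e-10). SMARCA1 nonetheless remained the minor gene of the pair, at 2.54% and 2.66% of the summed reads per exonic base with DMSO and 9.23% and 6.90% with CBL0137.

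The 9 CHD genes spanned the whole range of the members, from CHD2 at -1.41 to CHD5 at 2.58. CHD1 and CHD2 form a subgroup that acts at transcribed genes. CHD2 (ENSG00000173575, chromosome 15, 93429433 to 93571226, plus strand) stood at 142 and 145 CPM with DMSO and at 55.7 and 52.1 CPM with CBL0137. This was a 2.66-fold fall (log2 fold change -1.41, SE 0.06, edgeR adjusted p = 4.1e-23), called in each refit, with values from -1.47 to -1.25. CHASERR, the long non-coding RNA gene just upstream of CHD2 that is known to hold CHD2 expression down in cis, had 415 and 460 reads with DMSO and 539 and 535 with CBL0137 (0.06, SE 0.09, adjusted p = 0.59). CHASERR was looked up after the value of CHD2 had been seen. CHD1 was at 197 ± 7.41 and 149 ± 3.38 CPM (-0.40, SE 0.05), under the fold limit.

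CHD3, CHD4 and CHD5 are the alternative ATPases of NuRD, and CHD5 is known as the neuronal form. CHD5 (ENSG00000116254, chromosome 1, 6161847 to 6240381, minus strand) had 34 and 31 reads with DMSO and 230 and 227 reads with CBL0137. It rose from 1.80 and 1.67 CPM to 10.5 and 10.3 CPM, 5.96-fold (log2 fold change 2.58, SE 0.20, edgeR adjusted p = 1.4e-14). On deposited FPKM, CHD5 went from 0.111 ± 0.0134 to 0.794 ± 0.0119 (SD, n = 2), a low level beside CHD3 (47.6 ± 1.22 and 44.1 ± 1.22 FPKM) and CHD4 (82.1 ± 1.43 and 79.7 ± 0.813 FPKM). CHD3 was at 549 ± 8.09 and 462 ± 5.64 CPM (-0.25, SE 0.05), under the fold limit.

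Of the subgroup CHD6 to CHD9, CHD6 (203 ± 8.38 and 276 ± 13.4 CPM; log2 fold change 0.44, SE 0.05) and CHD8 (199 ± 12.8 and 279.7 ± 1.85 CPM; 0.49, SE 0.05) stood higher under the fold limit, and passed it with library size alone (0.60 and 0.65). CHD9 was at 69.8 ± 4.38 and 59.3 ± 2.41 CPM (-0.23, SE 0.07), but on log2(FPKM + 0.1) it was called lower at -0.92 (limma adjusted p = 0.021). CHD7 had between 13 and 29 reads per library and was not called (-0.74, SE 0.42, edgeR adjusted p = 0.12).

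None of the 3 INO80-type ATPases was called by edgeR or by DESeq2 (0 each), against 33.4% of all genes tested in edgeR. In edgeR 2 had an unadjusted p under 0.05. Of these, EP400 alone stood lower with an adjusted p under 0.05 (33.3% of the 3, against 30.9% of all genes). The SRCAP value rests on few of its reads, as described below. INO80 had 72.96 ± 3.88 CPM with DMSO and 66.2 ± 1.32 CPM with CBL0137 (-0.14 on the log2 scale, SE 0.06), EP400, of the TIP60 complex, at 193 ± 9.02 and 167 ± 6.24 CPM (-0.21, SE 0.05), and SRCAP at 5.56 ± 1.18 and 6.69 ± 0.0687 CPM (0.26, SE 0.18).

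Of the other ATPases, HELLS and SMARCAD1 fell. HELLS, a remodeler needed for DNA methylation of heterochromatin (ENSG00000119969, chromosome 10, 96305086 to 96373662, plus strand), stood at 85.6 and 90.6 CPM with DMSO and 47.7 and 48.6 CPM with CBL0137 (log2 fold change -0.87, SE 0.06, edgeR adjusted p = 2.8e-15). Its partner CDCA7 stood at 156 and 154 CPM with DMSO and 161 and 154 CPM with CBL0137 (0.02, SE 0.05). SMARCAD1, which acts in chromatin upkeep behind the replication fork (ENSG00000163104, chromosome 4, 95128762 to 95212443, plus strand), stood at 142 and 152 CPM with DMSO and 94.3 and 98.6 CPM with CBL0137 (-0.61, SE 0.06, adjusted p = 2.3e-12). Its groups did not overlap, but the value lay near the limit: the call was lost under 7 of the alternatives fitted, such as the GC and length trend removed (-0.33), library size alone (-0.45), upper-quartile factors (-0.54), without DMSO replicate 2 (-0.57) and without CBL0137 replicate 1 (-0.58). ATRX, which deposits a histone variant at telomeres with DAXX, was at 274 ± 6.74 and 229 ± 0.199 CPM (-0.26, SE 0.05), and DAXX was at -0.15. SMARCAL1, which restarts stalled forks, stood at 38.7 ± 3.70 and 39.2 ± 1.08 CPM (0.02, SE 0.08).

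For CHD4, SRCAP and SMARCE1 the counts rest on a small part of the gene's reads. Given each gene's FPKM, the length of its longest transcript and the depth of each library, a tested gene had a median of 1.38 counted reads for each read so expected. CHD4 had 0.0399, SRCAP 0.0534 and SMARCE1 0.0731. Each shares exons with another protein-coding gene on its strand: 46.9% of the exonic length of CHD4 with ENSG00000285238, 73.1% of SRCAP with ENSG00000282034 and 18.9% of SMARCE1 with ENSG00000264058. The overlapping genes of CHD4 and SMARCE1 had 0 reads in all 4 libraries, and that of SRCAP at most 9, whereas their FPKM was 65.8 and 66.0 with DMSO for the gene over CHD4, 31.3 and 31.1 for that over SMARCE1 and 9.57 and 9.72 for that over SRCAP. The HTSeq summary lists 8.75% to 9.34% of reads per library as ambiguous between genes.

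For these 3 genes the deposited FPKM is given beside the counts. How it divides the reads of shared exons between overlapping genes is not stated, so these values may include reads of both. CHD4 stood at 83.1 and 81.0 FPKM with DMSO and 79.1 and 80.2 FPKM with CBL0137, a difference of -0.04 on log2(FPKM + 0.1) (limma adjusted p = 0.56). SRCAP stood at 8.96 and 8.92 FPKM with DMSO and 10.3 and 10.3 FPKM with CBL0137 (0.20, adjusted p = 0.098). SMARCE1 stood at 49.6 and 49.8 FPKM with DMSO and 40.5 and 41.6 FPKM with CBL0137 (-0.27, adjusted p = 0.02), under the fold limit. By counts CHD4 would rank among the weakly expressed CHD genes (21.2 ± 4.05 CPM with DMSO), by FPKM it was the highest of the 9.

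**Figure D4:**
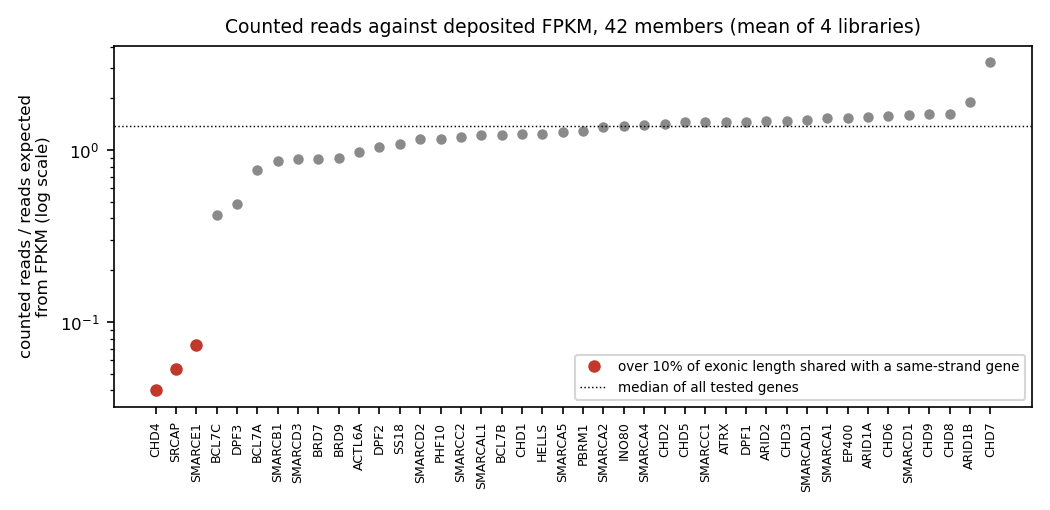
Ratio of counted reads to the reads expected from the deposited FPKM, transcript length and depth (vertical axis, log scale), mean of the 4 libraries, for the 42 tested members in ascending order. CHD4 (0.0399), SRCAP (0.0534) and SMARCE1 (0.0731), in red, lie far below the others and below the dotted median of all tested genes (1.38).

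Over the 42 tested members, the log2 fold change showed Pearson's r = 0.22 with the GC content of the longest transcript (Spearman's rho = 0.21) and r = 0.07 with its log2 length (rho = 0.08). With the log2 FPKM level in DMSO the values were r = -0.50 and rho = -0.30. These are descriptions across genes of the same 4 libraries, and genes are not independent replicates. The level with DMSO is also part of the fold change itself. The 5 genes called higher had a median GC content of 53.2% (39.5 to 64.3%) and the 8 called lower one of 44.3% (37.1 to 59.6%).

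The other subunits of these complexes were read from a list of 65 genes, chosen by complex membership, of which 63 were tested. Of these, 3 rose (4.76%, against 18.2% of all genes) and 6 fell (9.52%, against 15.1%), with a median log2 fold change of -0.12. Without the fold limit, 15 stood higher (23.8%, against 30.8% of all genes) and 30 lower (47.6%, against 30.9%) with an adjusted p under 0.05. Library size alone gave 7 higher and 4 lower, so the balance between directions depends on the scaling.

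Among the BAF partners 1 of 5 tested genes fell: BCL11B, a zinc-finger subunit that is also in the Ewing marker list above, from 321 and 315 to 162 and 171 CPM (log2 fold change -0.93, SE 0.05, edgeR adjusted p = 6.1e-19). Of 11 ISWI partners 0 were called by edgeR (against 33.4% of all genes tested) and 0 by DESeq2. In edgeR 10 had an unadjusted p under 0.05, a criterion for which the share over all genes was not computed. By adjusted p alone 4 stood higher (36.4%, against 30.8% of all genes). They were BAZ2A (0.50, SE 0.05), BPTF (0.45, SE 0.05), CECR2 (0.54, SE 0.09) and RSF1 (0.27, SE 0.05). Another 6 stood lower (54.5%, against 30.9%), with BAZ1A lowest (-0.51, SE 0.05). Of 10 NuRD partners 2 fell and 0 rose. HDAC2, a deacetylase, fell from 608 and 589 to 344 and 349.7 CPM (-0.79, SE 0.05), while its paralog HDAC1 was not called (294 and 299.6 CPM with DMSO, 297 and 305 CPM with CBL0137; 0.02, SE 0.05). GATAD2A, which joins the deacetylase and remodeler modules of NuRD, fell by 0.70 on the log2 scale (SE 0.05), while GATAD2B was at -0.14 (SE 0.06).

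Of 12 tested INO80 partners 1 fell: RUVBL1, an AAA+ ATPase of both the INO80 and TIP60 complexes, from 399 and 380 to 193 and 211 CPM (log2 fold change -0.95, SE 0.05, edgeR adjusted p = 8.9e-19). RUVBL2, which forms a ring with it, was at 229 and 208 CPM with DMSO and 208 and 210 CPM with CBL0137 (-0.06, SE 0.05). INO80B, a subunit of the INO80 complex, was left untested with 2 to 17 counted reads per library, but its deposited FPKM was 11.4 and 11.5 with DMSO and 31.2 and 29.4 with CBL0137 (1.39 on log2(FPKM + 0.1), limma adjusted p = 0.0021). CHD1L, a remodeler of the DNA damage response, likewise had 23 to 34 reads (-0.10, SE 0.38, not called), against 14.5 and 13.4 FPKM with DMSO and 10.5 and 9.99 FPKM with CBL0137 (-0.44, limma adjusted p = 0.018, under the fold limit). Both were singled out after their values were seen. For both, few reads were counted beside their FPKM, as for CHD4, SRCAP and SMARCE1. Whether these FPKM values include reads of other genes was not tested. Of 14 partners of SRCAP and TIP60, YEATS4, a reader of acetylated histones, fell from 75.2 and 71.8 to 26.0 and 31.0 CPM (-1.36, SE 0.08, adjusted p = 4.1e-19) and MEAF6 fell by 0.66. ZNHIT1, a subunit of the SRCAP complex, rose from 57.1 and 46.8 to 82.3 and 83.8 CPM (0.68, SE 0.07). In the remaining list of 11, BTAF1, which clears the TATA-binding protein from DNA, rose from 109.7 and 120.5 to 189 and 192 CPM (0.73, SE 0.06), and the termination factor gene TTF2 was called at 0.59 (SE 0.06). The TTF2 fold of 1.505 lay just over the limit, and its call was lost under 5 refits, among them DESeq2 (0.58) and the fits without DMSO replicate 1 (0.52) or CBL0137 replicate 1 (0.56). Calls were also lost for ZNHIT1 without DMSO replicate 2 (0.53), for GATAD2A and MEAF6 with library size alone (-0.54 and -0.50) and on FPKM, and for HDAC2 and MEAF6 with the GC and length trend removed (-0.54 and -0.48).

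**Figure D5:**
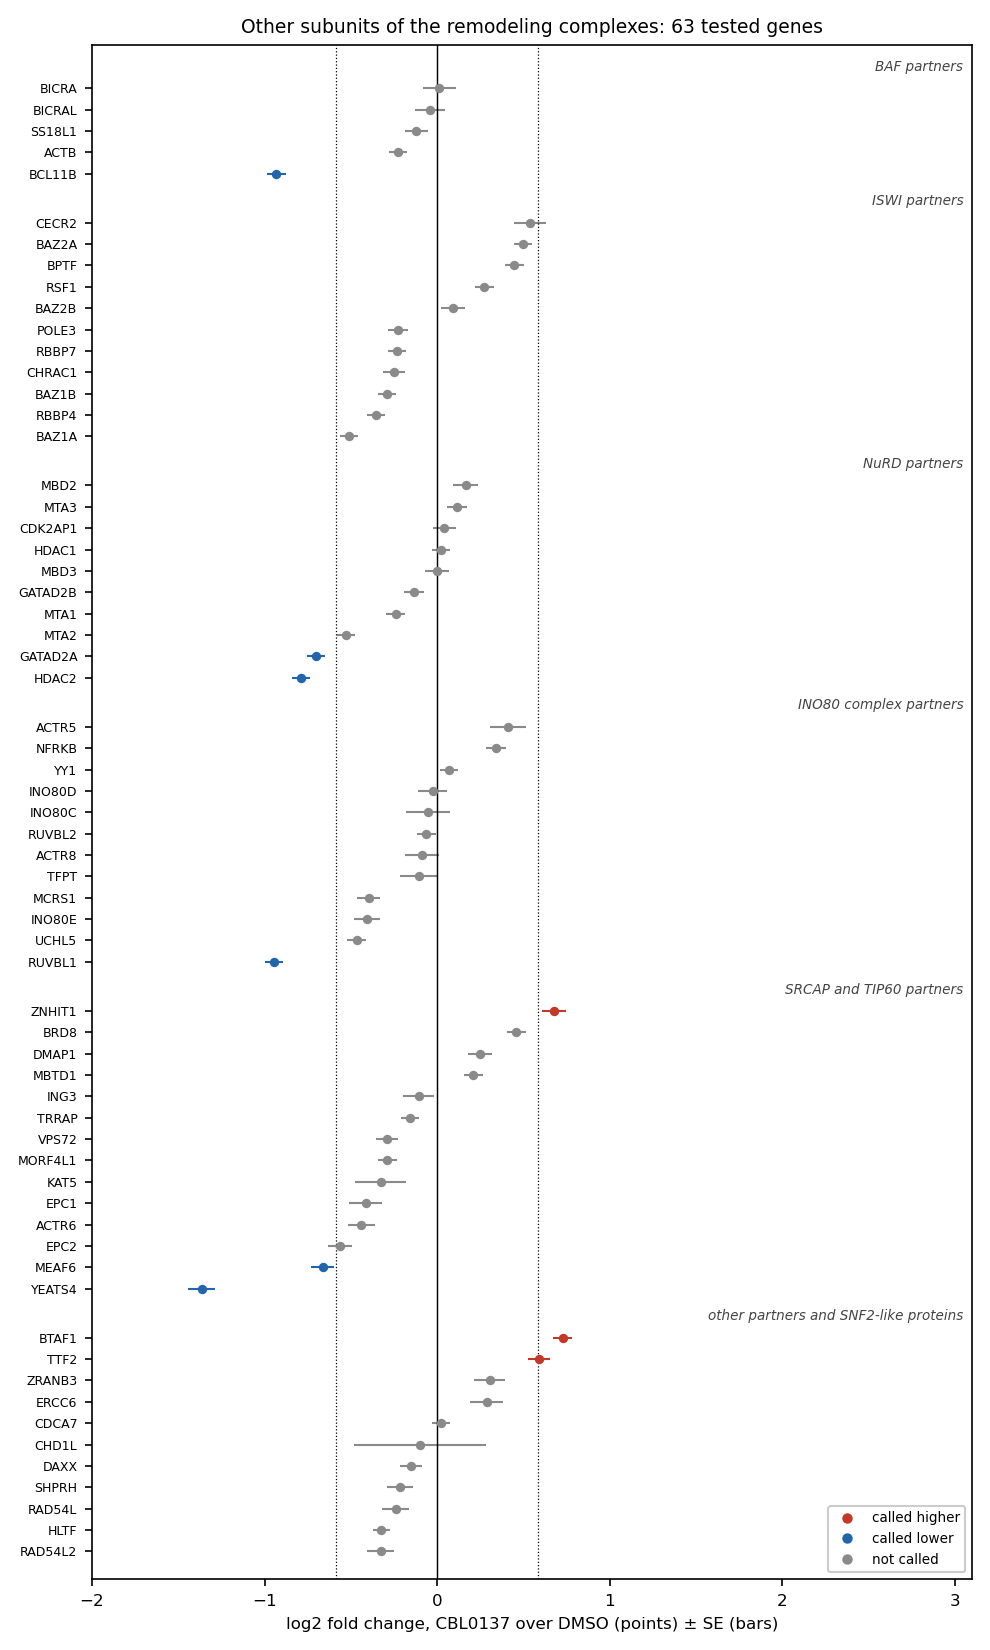
Log2 fold change (CBL0137 over DMSO, points) with its SE (bars) for the 63 tested partner genes, grouped by complex; dotted lines mark the fold limit of 1.5. YEATS4 (-1.36), RUVBL1 (-0.95) and BCL11B (-0.93) lie farthest to the left, and BTAF1 (0.73) and ZNHIT1 (0.68) farthest to the right.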

How the data were processed

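RNA-seq libraries of SKNMC cells (2 with DMSO, 2 with CBL0137) were grouped by sample title. The authors counted reads per gene with HTSeq 0.11.1 after Trim Galore and alignment to hg19 by HISAT2, per the series' design text. Neither the annotation release nor the strand setting is stated there. Deposited FPKM values (fragments per kilobase and per 1000000) stand beside the counts. The authors computed them from mapped reads with gene length and depth taken into account, per the series' design text, which names no tool for this step. The authors' own test was DESeq2 1.26.0 with the fold limit and adjusted p used here. The submitters' processing notes also name mm10. Beside 60617 genes the table holds 6 summary entries naming no gene, which were dropped. Reads in no annotated gene were 8.52% to 10.3% of all counted reads per library and multiply aligned reads 6.91% to 7.13%.

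Counts were fitted over all genes with edgeR 4.0.16 in R 4.3.3 (TMM, filterByExpr, quasi-likelihood F test, Benjamini-Hochberg adjustment over 17374 genes). Each SE was obtained from the fold change and its F statistic (|log2 fold change| over root F). CPM values use the TMM effective library sizes. DESeq2 1.42.0 and limma 3.58.1 on log2(FPKM + 1) or log2(FPKM + 0.1), for genes with an FPKM of at least 0.1 in 2 libraries, were alternatives. The fit was also tested on simulated counts (16949 genes), with a common dispersion and 200 genes changed evenly up and down. It recovered 87.8% of genes changed by 1 and 97.9% of genes changed by 2 on the log2 scale. In the data 33.4% of genes were called, and these rates do not cover changes of that breadth. Replicates differed by more than sampling noise (chi-square per degree of freedom 2.95 and 2.68). Gene positions, lengths and overlaps are those of GENCODE 44 lifted to GRCh37 (hg19), and upstream sequences from RefSeq (GRCh38.p14). The members and lists were chosen with earlier results of these data known. All 43 members are named, with each library's value for those called; of each partner list the 3 called genes with the smallest p are named, and other genes were chosen after their values were seen.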

Additional observations from a re-analysis of the deposited data

How the results depend on the processing

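Of 587 member values recomputed under alternatives, 512 kept their direction and side of the threshold. The calls of SMARCA2, CHD5, SMARCA1, CHD2, PBRM1, ARID2, HELLS and BCL7B held in each refit with the fold limit of 1.5, while those of BCL7C, DPF3 and SMARCAD1 were the least stable and those of SMARCB1 and BCL7A were lost with library size alone. Members called higher numbered 5, but 3 with DESeq2, 3 without the low-count filter, 3 with the GC and length trend removed (3 with the replicate block too), 8 with library size alone, 9 when any fold counted and 2 when the fold had to exceed 2. Leaving out 1 library gave 3 to 5: 3 without DMSO replicate 2 and 3 without CBL0137 replicate 2. Members called lower numbered 8, but 5 with library size alone, 22 when any fold counted and 2 above a fold of 2, and 7 to 8 when 1 library was left out. Partner genes called higher numbered 3, but 7 with library size alone, 5 with log2(FPKM + 1), 7 with log2(FPKM + 0.1), 15 when any fold counted and 0 above a fold of 2 (2 to 3 when 1 library was left out). Partner genes called lower numbered 6, but 30 when any fold counted and 1 above a fold of 2 (6 to 7 when 1 library was left out). The share of higher calls among members was 38.5% with TMM and 61.5% with library size alone, against 54.6% and 68.8% over all genes. Over all genes, 3166 were higher and 2632 lower, against 2072 and 1519 with log2(FPKM + 1), 1988 and 1218 above a fold of 2, and 3129 and 2612 with the replicate block.

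The replicate block gave 5 members higher and 8 lower, the same genes as without it, and 3 and 6 partners. The labels do not say whether same-numbered libraries share a culture or a batch. The correlation of their deviations was 0.02 across 17374 genes, a single value that cannot exclude it.

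Several shares on other scales moved, in percentage points (CBL0137 minus DMSO), by more than the replicate spread of the count-based share. On FPKM that spread was itself wider (SD of 15.3 points for ARID1A and 4.98 for SMARCA2 with DMSO). With FPKM in place of counts per exonic length, SMARCA2 moved from 21.7 to 26.6, SMARCD1 from -8.13 to -9.56, ARID1A from 5.95 to 12.6, DPF3 from 3.44 to 6.70 and BCL7C from 5.49 to 11.3. With the longest transcript, ARID1A moved to 8.85 and DPF3 to 2.91. SMARCA2 (21.7), SMARCD1 (-8.77) and BCL7C (5.86) stayed within the count-based spread there. SMARCC1 (-8.53) was at -7.27 on FPKM and -9.23 with the longest transcript, within that spread on both. So was SMARCA1 (5.47), at 4.53 and 5.27.

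Signs turned for 8 members near 0, none of which passed the fold limit, and for CHD7, whose fold was past the limit without an adjusted p under 0.05. The cause was not tested. SMARCC2 (0.02) was at -0.0011 with no filter, -0.0030 and -0.0033 with log2(FPKM + 1) and log2(FPKM + 0.1), -0.046 with the GC and length trend removed (-0.046 with the block), and from -0.022 to 0.047 when 1 library was left out. SMARCD2 (-0.07) was at 0.11 and 0.12 with FPKM and 0.086 with library size alone. SMARCE1 (-0.05) was at 0.11 with library size alone, 0.014 by upper-quartile factors, 0.19 with the trend removed (0.19 with the block) and from -0.14 to 0.017 when 1 library was left out. SS18 (-0.12) was at 0.0010 and 0.0011 with FPKM, 0.076 with the trend removed (0.076 with the block) and 0.044 with library size alone. SMARCA5 (-0.03) was at 0.13 with library size alone, 0.034 by upper-quartile factors, 0.016 with the stricter filter, 0.075 and 0.078 with FPKM and 0.22 with the trend removed (0.22 with the block). CHD4 (0.04) was at -0.042 and -0.043 with FPKM and from -0.16 to 0.23 when 1 library was left out. CHD7 (-0.74) was at 0.083 and 0.16 with FPKM, and was called lower without CBL0137 replicate 1 (-1.36). INO80 (-0.14) was at 0.040 and 0.045 with FPKM and 0.018 with library size alone. SMARCAL1 (0.02) was at -0.0045 with no filter and from -0.092 to 0.10 when 1 library was left out. Depth limits CHD7, BCL7C, CHD5 and SMARCA1, which had few reads in the DMSO libraries.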
